A study of Mus musculus with 18 samples.

Results

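Fatty acids are built in the cytosol from acetyl-CoA and are then lengthened and desaturated in the endoplasmic reticulum. The 10 genes described here code for the enzymes of these steps, and were chosen by name. Acly, Acaca and Fasn make palmitate, Elovl1, Elovl5 and Elovl6 lengthen acyl chains, and Scd1, Scd2, Fads1 and Fads2 put double bonds into them. All 10 were found among the 54354 rows of the deposited table, and all 10 passed the filter on low counts that left 11780 genes in the serine-free libraries. Each was detected in all 10 serine-free libraries.

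RNA of mouse samples labelled colon, tumor and wild type was sequenced with a kit that captures mRNA by its poly(A) tail and keeps the strand. SF_HFD, a serine-free high fat diet, had 5 libraries, and its comparison group SF_CD, a serine-free control diet, had 5. The protocol in the labels names organoids, cultures of epithelial cells, whereas the design text of the series speaks of cells sorted from normal or tumor tissue, and neither the age of the animals nor the transgenes of a model are given. A further 8 libraries, 5 labelled HFD and 3 labelled CD without mention of serine, were not used, because their rows do not name the genes counted: Actb, Gapdh, Eef1a1 and Epcam, transcripts that epithelial cells contain in quantity, were at 0 in all 8, and 9 of the 10 enzymes were too.

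ATP citrate lyase (Acly) splits citrate to give acetyl-CoA. Acetyl-CoA carboxylase (Acaca) turns it into malonyl-CoA, the step at which the pathway is mainly regulated, and fatty acid synthase (Fasn) joins malonyl-CoA units into palmitate. The transcription factor coded by Srebf1 is the best known activator of these genes. Palmitoyl-CoA is also the partner of serine in the reaction that starts ceramide synthesis, and the title of the series names ceramides. Comparing SF_HFD with SF_CD shows how transcripts of these enzymes stood under a high fat diet when dietary serine was absent.

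Depth and RNA content differed within both groups. Total counts were 727610 to 12146933 in SF_HFD and 499774 to 12841275 in SF_CD. The SF_HFD library 5 and the SF_CD libraries 1 and 5 held under 1000000 counts. Ribosomal RNA took 2.97% to 7.19% of the counts in SF_HFD. In SF_CD it took 22.0% and 14.5% in the libraries 1 and 5 and 2.08% to 2.40% in the other 3. These 2 libraries were not alike in other respects. The non-coding transcript Malat1 took 12.1% of the counts in the SF_CD library 1, against 0.409% to 1.66% in all others. Protein-coding genes took 63.5% in the SF_CD library 1, 81.0% in the SF_CD library 5 and 89.4% to 94.7% in the rest. All 8 epithelial markers were detected, and their summed level was 4525 to 10836 CPM in SF_HFD and 2315 to 6314 CPM in SF_CD. CPM are counts per 1000000 counts of the tested genes, each library total being multiplied by its TMM scaling factor (0.892 to 1.19). The 6 smooth muscle markers summed to 161 to 255 CPM in SF_HFD and 2.94 to 23.2 CPM in SF_CD, and the groups did not overlap. Fat cells are rich in most of these enzymes. The 6 fat cell markers summed to 1.21 to 8.84 CPM in SF_HFD and 1.87 to 4.86 CPM in SF_CD, of which 2, Cidec and Retn, were detected and 4, Adipoq, Plin1, Lep and Cfd, had 0 counts in all 10 libraries. The 6 macrophage markers summed to 55.1 to 99.8 CPM in SF_HFD and 49.5 to 120.7 CPM in SF_CD. The 6 fibroblast markers summed to 60.5 to 130.1 CPM in SF_HFD and 11.5 to 91.5 CPM in SF_CD. Lymphocyte markers reached 4.0 CPM in SF_HFD, against 3.09 CPM in SF_CD, and red cell markers 0.302 CPM in SF_HFD and 2.12 CPM in SF_CD. Endothelial markers reached 4.08 CPM in SF_HFD, against 31.6 and 15.6 CPM in the SF_CD libraries 1 and 5 and 2.86 to 4.20 CPM in the other 3. In bulk RNA, fewer cells of a type and less RNA per cell cannot be told apart.

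None of the 10 enzymes passed the threshold between SF_HFD and SF_CD (an adjusted p under 0.05 in edgeR's quasi-likelihood test, by the Benjamini-Hochberg method over all genes), a threshold that 0.323% of all genes tested passed. The adjusted p of the 10 lay between 0.365 and 0.962 in edgeR. DESeq2 and limma-voom with sample quality weights called 0 of the 10 as well. At an unadjusted p under 0.05, 2 of the 10 passed, Elovl6 and Fads1, both lower in SF_HFD, against 11.6% of all genes tested. The CPM values of the groups overlapped for all 10, while 3.65% of all genes had groups that did not overlap. The log2 fold change was positive for 4 enzymes and negative for 6, with a median of -0.11 against 0.02 over all genes. On simulated counts the test recovered 58% of 4-fold and 3% of 2-fold changes in this comparison. Most 2-fold differences would thus not be called at this spread. The simulation changed only genes with a mean of at least 10 CPM and gave each gene the same dispersion in all libraries. It therefore did not represent rarer genes or uneven library quality.

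**Figure D1:**
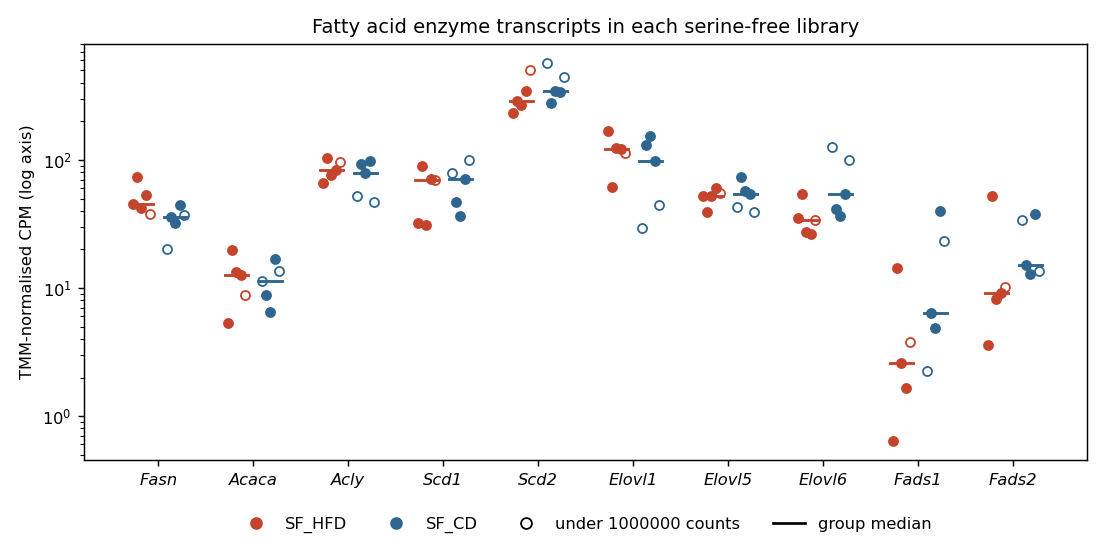
TMM-normalised CPM (log axis) of each enzyme in every serine-free library, with SF_HFD in red left of SF_CD in blue. Bars mark group medians and open circles the 3 libraries under 1000000 counts. The groups overlap for all 10 genes, Scd2 is the highest and Fads1 spreads most widely.

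Among the genes of palmitate synthesis, Fasn was the one with the most uniform tendency. It was at 44.98, 73.7, 41.9, 52.8 and 37.9 CPM in the SF_HFD libraries 1 to 5, against 20.3, 35.8, 31.9, 44.2 and 37.0 CPM in the SF_CD libraries 1 to 5. All 5 SF_HFD libraries lay above the SF_CD median of 35.8 CPM, and 3 lay above every SF_CD library. The means were 50.3 ± 14.2 CPM in SF_HFD, against 33.8 ± 8.77 CPM in SF_CD (SD, n = 5 each). The log2 fold change of Fasn was 0.55 ± 0.34 (SE), with a 95% interval of -0.16 to 1.27 and an edgeR adjusted p of 0.542. The lowest value, in the SF_CD library 1, rests on 9 counts, whose exact counting interval was 9.28 to 38.5 CPM. Without the 3 libraries under 1000000 counts the log2 fold change was 0.51 ± 0.27 (edgeR adjusted p = 0.358).

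Acly, which supplies the acetyl-CoA, was at 66.1, 103.7, 76.6, 83.8 and 97.3 CPM in the SF_HFD libraries 1 to 5, against 51.8, 93.3, 78.7, 97.9 and 46.7 CPM in the SF_CD libraries 1 to 5. The SF_CD libraries 1 and 5, those richest in ribosomal RNA, were the lowest of all 10. The means were 85.5 ± 15.2 CPM in SF_HFD, against 73.7 ± 23.5 CPM in SF_CD. Acly had a log2 fold change of 0.19 ± 0.33 (95% interval -0.50 to 0.88, edgeR adjusted p = 0.874). It was -0.13 without the 3 libraries under 1000000 counts, so its sign rests on them.

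Acaca, the carboxylase, had the fewest counts of the synthesis genes, 461 in SF_HFD and 362 in SF_CD. It was at 5.34, 19.8, 13.2, 12.5 and 8.84 CPM in the SF_HFD libraries 1 to 5, against 11.3, 8.82, 6.45, 17.0 and 13.6 CPM in the SF_CD libraries 1 to 5. Both the lowest and the highest of these 10 values were SF_HFD libraries. Its log2 fold change was 0.09 ± 0.45 (95% interval -0.85 to 1.04, edgeR adjusted p = 0.960). Of the 31-base words in its annotated transcripts, 33.4% also occur in another gene, chiefly the processed pseudogene Gm5182, which had 0 counts in both groups.

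The 3 elongases differed in how they varied. Elovl6, which turns palmitate into stearate, was at 35.2, 54.6, 27.6, 26.2 and 34.1 CPM in the SF_HFD libraries 1 to 5, against 126, 41.5, 36.3, 54.0 and 99.3 CPM in the SF_CD libraries 1 to 5. Of the SF_HFD libraries, 4 lay below every SF_CD library and the SF_HFD library 2 lay among them. The SF_CD libraries 1 and 5, with 56 and 51 counts, were the highest, and they are also the libraries with the most ribosomal RNA, whose part in this result was not tested. The means were 35.5 ± 11.4 CPM in SF_HFD, against 71.5 ± 39.4 CPM in SF_CD. The log2 fold change of Elovl6 was -0.97 ± 0.41 (95% interval -1.83 to -0.11), with an unadjusted p of 0.0295 and an adjusted p of 0.365 in edgeR. Without the 3 libraries under 1000000 counts it was -0.30 ± 0.31 (edgeR adjusted p = 0.635), with 26.2 to 54.6 CPM in 4 SF_HFD libraries and 36.3 to 54.0 CPM in 3 SF_CD libraries.

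Elovl1, which makes very long saturated chains used in sphingolipids, was at 167, 62.0, 123, 121 and 114 CPM in the SF_HFD libraries 1 to 5, against 29.3, 130, 155, 97.7 and 44.8 CPM in the SF_CD libraries 1 to 5. In contrast to Elovl6, its lowest values were the SF_CD libraries 1 and 5, on 13 and 23 counts. Elovl1 had a log2 fold change of 0.34 ± 0.43 (95% interval -0.57 to 1.24, edgeR adjusted p = 0.818). It was -0.10 ± 0.33 without the 3 libraries under 1000000 counts, so its sign also rests on them.

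Elovl5, which lengthens polyunsaturated chains, had the narrowest range of the 10 enzymes over all 10 libraries. It was at 52.8, 39.2, 52.4, 60.0 and 55.6 CPM in the SF_HFD libraries 1 to 5, against 42.8, 73.7, 57.4, 54.4 and 38.9 CPM in the SF_CD libraries 1 to 5. The highest library was 1.89 times the lowest. In the 7 libraries over 1000000 counts it was 1.88 times, against 1.49 for Scd2 and 1.57 for Acly. Every SF_HFD value lay within the SF_CD range. Its log2 fold change was -0.06 ± 0.31 (95% interval -0.72 to 0.60, edgeR adjusted p = 0.962).

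Scd1 and Scd2 code for stearoyl-CoA desaturases, which make oleate and palmitoleate from saturated chains. Scd2 was at 232, 291, 271, 344 and 507 CPM in the SF_HFD libraries 1 to 5, against 573, 278, 346, 338 and 444 CPM in the SF_CD libraries 1 to 5. The 3 libraries under 1000000 counts held its 3 highest values, in both groups. Its log2 fold change was -0.27 ± 0.32 (95% interval -0.94 to 0.41, edgeR adjusted p = 0.806).

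Scd1 was at 32.2, 89.4, 31.3, 71.2 and 69.5 CPM in the SF_HFD libraries 1 to 5, against 78.9, 46.9, 36.4, 71.5 and 99.3 CPM in the SF_CD libraries 1 to 5. Low and high libraries occurred in both groups. Its log2 fold change was -0.17 ± 0.40 (95% interval -1.01 to 0.68, edgeR adjusted p = 0.918). The genes lie 87.6 kb apart on chromosome 19 (mm10; Scd1 at 44394455 to 44407879 and Scd2 at 44293674 to 44306864). They share 8.14% of the 31-base words of Scd1 and 6.81% of those of Scd2, which limits how surely reads were divided between them.

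Fads1 and Fads2 code for the desaturases that, in alternation with Elovl5, make long polyunsaturated fatty acids such as arachidonate. They varied most of the 10 enzymes, and they also neighbour each other on chromosome 19, 81.1 kb apart (mm10; Fads1 at 10182888 to 10196877 and Fads2 at 10062765 to 10101746). Fads1 was at 0.634, 14.3, 2.59, 1.66 and 3.79 CPM in the SF_HFD libraries 1 to 5, against 2.25, 6.39, 4.90, 39.8 and 23.4 CPM in the SF_CD libraries 1 to 5. The highest library was 62.8 times the lowest. High values occurred in the SF_HFD library 2 and the SF_CD libraries 4 and 5, and the SF_CD library 1 held a single count. The means were 4.59 ± 5.54 CPM in SF_HFD, against 15.3 ± 16.0 CPM in SF_CD.

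The log2 fold change of Fads1 was -1.82 ± 0.82 (95% interval -3.56 to -0.08), with an unadjusted p of 0.0419 and an adjusted p of 0.402 in edgeR. It was -3.07 ± 0.82 without the SF_HFD library 2 (edgeR adjusted p = 0.217). Leaving out the SF_CD library 4 instead gave -0.92 ± 0.83 (edgeR adjusted p = 0.726). The SF_HFD mean was 2.17 CPM without its library 2, and the SF_CD mean was 9.23 CPM without its library 4. Without the 3 libraries under 1000000 counts the log2 fold change was -1.92 ± 1.10 (edgeR adjusted p = 0.404).

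Fads2 was at 3.62, 52.1, 8.23, 9.21 and 10.1 CPM in the SF_HFD libraries 1 to 5, against 33.8, 15.1, 12.8, 37.6 and 13.6 CPM in the SF_CD libraries 1 to 5. Here 4 SF_HFD libraries lay below every SF_CD library, and the SF_HFD library 2 lay above every one. The means were 16.6 ± 19.96 CPM in SF_HFD, against 22.6 ± 12.1 CPM in SF_CD, and the SF_HFD mean was 7.79 ± 2.88 CPM without its library 2. Fads2 had a log2 fold change of -0.42 ± 0.63 (95% interval -1.75 to 0.90, edgeR adjusted p = 0.848). It was -1.57 ± 0.50 without the SF_HFD library 2 (edgeR adjusted p = 0.314) and -0.12 ± 0.67 without the SF_CD library 4 (edgeR adjusted p = 0.966).

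**Figure D2:**
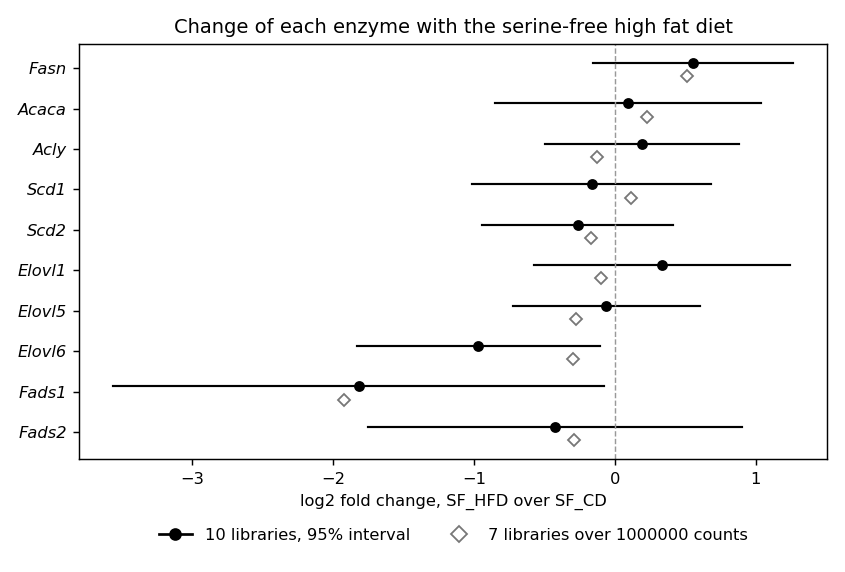
Log2 fold change of each enzyme, SF_HFD over SF_CD, from the edgeR fit of all 10 serine-free libraries (dots, with 95% intervals not adjusted for the number of genes) and from the 7 libraries over 1000000 counts (open diamonds). The interval excludes 0 for Elovl6 and Fads1, and the Elovl6 value is -0.97 with all libraries and -0.30 with 7.

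The promoters of 3 enzymes are given to set Fasn, the synthase itself, beside Elovl5, the gene with the narrowest range over all 10 libraries, and Fads2, the gene with the widest range among those with a promoter sequence. They run from 250 bases before to 50 bases after the annotated start (RefSeq, GRCm38.p6, the build also called mm10), and 7 of the 10 enzymes matched an entry. Capitals mark CCAAT, the box bound by NF-Y, or CACGTG, an E-box, on either strand. The windows lie at chr11:120824498-120824797 on the minus strand (Fasn), chr9:77917115-77917414 on the plus strand (Elovl5) and chr19:10101454-10101753 on the minus strand (Fads2).
Fasn: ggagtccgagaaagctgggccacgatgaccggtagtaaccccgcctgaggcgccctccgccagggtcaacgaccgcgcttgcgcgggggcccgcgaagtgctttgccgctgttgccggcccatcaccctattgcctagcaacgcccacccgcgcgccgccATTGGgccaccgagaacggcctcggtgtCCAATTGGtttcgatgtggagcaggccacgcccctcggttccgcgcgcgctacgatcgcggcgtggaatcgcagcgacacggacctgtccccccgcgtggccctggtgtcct
Elovl5: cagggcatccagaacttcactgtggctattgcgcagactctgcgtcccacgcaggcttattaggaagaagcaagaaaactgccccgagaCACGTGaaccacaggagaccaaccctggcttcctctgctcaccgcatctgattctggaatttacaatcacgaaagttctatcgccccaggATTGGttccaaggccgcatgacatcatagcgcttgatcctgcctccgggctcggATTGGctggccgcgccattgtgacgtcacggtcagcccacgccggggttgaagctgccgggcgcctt
Fads2: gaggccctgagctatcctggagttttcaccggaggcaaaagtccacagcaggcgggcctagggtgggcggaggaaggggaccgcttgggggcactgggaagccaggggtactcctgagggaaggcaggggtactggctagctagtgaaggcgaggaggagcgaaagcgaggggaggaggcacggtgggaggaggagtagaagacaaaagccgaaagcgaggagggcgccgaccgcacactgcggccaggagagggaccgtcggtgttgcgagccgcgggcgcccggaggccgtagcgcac

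The Fasn window holds 3 matches of CCAAT, of which 2 overlap each other on opposite strands, and none of CACGTG. The Elovl5 window holds 2 matches of CCAAT and 1 of CACGTG, and the Fads2 window holds neither. Of the 7 enzymes with an entry (8 promoters), 4 hold CCAAT, namely Fasn, Acly, Elovl1 and Elovl5, and 1 holds CACGTG. Over all 32851 mouse promoters of this length, 37.4% hold CCAAT and 7.15% hold CACGTG. The letters TCACNCCAC, a form of the sterol regulatory element, were in none of the 8 windows and in 1.24% of all promoters. A match in these letters is not a measured binding site.

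Ratios of 2 transcripts within a library do not depend on scaling between libraries, and 5 such log2 ratios were compared (counts plus 0.5, exact two-sided permutation test, Benjamini-Hochberg over 5). None passed, and the smallest p that 5 against 5 libraries allow is 0.00794. Fads1 over Fads2 was -1.93 ± 0.51 in SF_HFD and -1.03 ± 1.58 in SF_CD (SD, n = 5 each; difference -0.90, exact permutation p = 0.270, adjusted 0.337). In the 7 libraries over 1000000 counts the 4 SF_HFD values of this ratio lay below the 3 SF_CD values. The difference was then -1.26, at the smallest p of 0.0286 that the exact test allows there (adjusted 0.0714). Single shallow libraries moved it, to -1.49 without the SF_CD library 1 (exact permutation p = 0.0159, adjusted 0.0794) and to -0.46 without the SF_CD library 5 (exact permutation p = 0.532, adjusted 0.665).

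Acly over Fasn was 0.78 ± 0.34 in SF_HFD and 1.09 ± 0.44 in SF_CD (difference -0.31, exact permutation p = 0.230, adjusted 0.337). The SF_CD library 5 stood apart at 0.33, on 24 and 19 counts, and without it the difference was -0.50 (exact permutation p = 0.0476, adjusted 0.238). In the 7 deeper libraries the SF_HFD values again lay below the SF_CD values (difference -0.63, exact permutation p = 0.0286, adjusted 0.0714). Elovl6 over Elovl5 was -0.58 ± 0.64 in SF_HFD and 0.27 ± 1.10 in SF_CD (difference -0.86, exact permutation p = 0.190, adjusted 0.337), and the difference was -0.54 without the SF_CD library 1 and -0.06 in the 7 deeper libraries. Acaca over Fasn was -2.14 ± 0.54 in SF_HFD and -1.57 ± 0.59 in SF_CD (difference -0.57, exact permutation p = 0.151, adjusted 0.337). That difference was -0.34 without the SF_HFD library 1, -0.38 without the SF_CD library 1 and -0.28 in the 7 deeper libraries. Scd1 over Scd2 was -2.56 ± 0.57 in SF_HFD and -2.61 ± 0.45 in SF_CD (exact permutation p = 0.913).

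Across the 10 libraries, Fads1 and Fads2 had the strongest pooled correlation of these 5 pairs (log2 CPM, Pearson r = 0.68, permutation p = 0.0307, adjusted 0.0897; Spearman rho = 0.72, permutation p = 0.0236, adjusted 0.118). It did not pass after adjustment over the 5 pairs. Without the 2 libraries farthest from the median of Fads1, the SF_CD libraries 4 and 5, r was 0.76, and in the 7 deeper libraries r was 0.93. The SF_CD library 1, with 1 count of Fads1 and 15 of Fads2, lay off the trend. Elovl6 and Elovl5 were negatively correlated (r = -0.66, permutation p = 0.0368, adjusted 0.0897; rho = -0.58, permutation p = 0.0886, adjusted 0.162). Without the 2 libraries farthest from the median of Elovl6, the SF_CD libraries 1 and 5, the pooled r was -0.35. With each group centred on its own mean, r was -0.87 for Elovl6 and Elovl5 and 0.60 for Fads1 and Fads2, so the order of these pairs turns. Scd1 and Scd2 had r = 0.63 (permutation p = 0.0538, adjusted 0.0897; rho = 0.56, permutation p = 0.0974, adjusted 0.162), and r was 0.36 without the 2 libraries farthest from the median of Scd1. Acly and Fasn had r = 0.58 (permutation p = 0.0816, adjusted 0.102; rho = 0.48, permutation p = 0.168, adjusted 0.210), and without the farthest 2, r was 0.31. Acaca and Fasn had r = 0.39 (permutation p = 0.258; rho = 0.42, permutation p = 0.232), and without the farthest 2, r was 0.60.

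**Figure D3:**
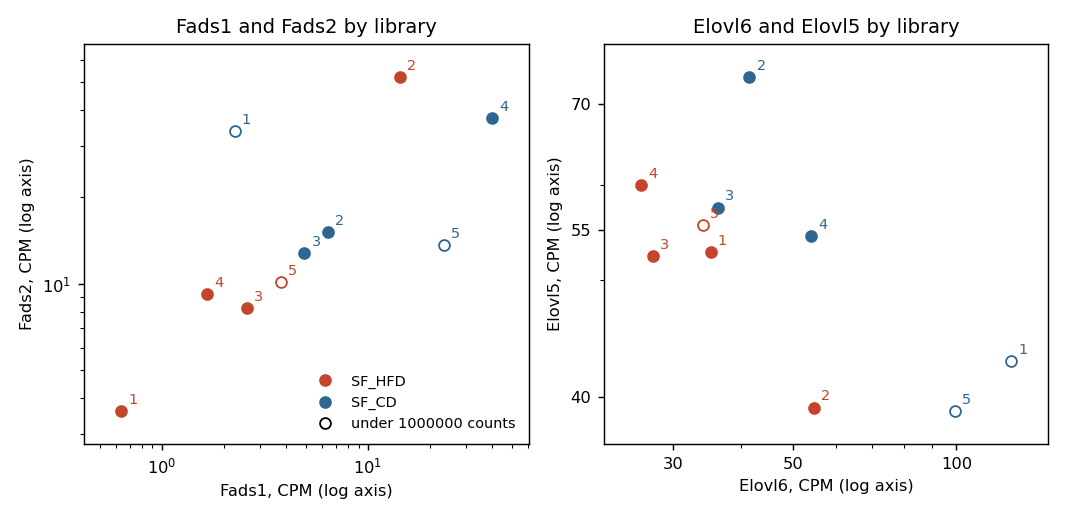
CPM of Fads1 against Fads2 and of Elovl6 against Elovl5 in each library (log axes), numbered by library, with SF_HFD in red and SF_CD in blue and open circles for libraries under 1000000 counts. Fads1 and Fads2 are high together in the SF_HFD library 2 and the SF_CD library 4, and the 2 highest Elovl6 values come from the shallow SF_CD libraries 1 and 5.

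The extreme values gathered in a few libraries. The SF_HFD library 2 held the highest value of its group for 7 of the 10 enzymes (Fasn, Acaca, Acly, Scd1, Elovl6, Fads1 and Fads2) and the lowest for Elovl1 and Elovl5. It had 3648783 counts and the most ribosomal RNA of the SF_HFD libraries, 7.19%. The SF_CD library 4, the deepest of the 10, was the highest of its group for 5 enzymes, Fasn, Acaca, Acly, Fads1 and Fads2, and the lowest for none. Epithelial markers summed to 2816 CPM in it and to 6279 and 6314 CPM in the SF_CD libraries 2 and 3. In the SF_CD libraries 1 and 5 they summed to 2581 and 2315 CPM. The SF_HFD library 1 was the lowest of its group for Acaca, Acly, Scd2, Fads1 and Fads2 and the highest for Elovl1. Its epithelial markers summed to 10836 CPM, against at most 5730 CPM in the other SF_HFD libraries. Whether the epithelial marker sums have a part in the values was not tested.

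**Figure D4:**
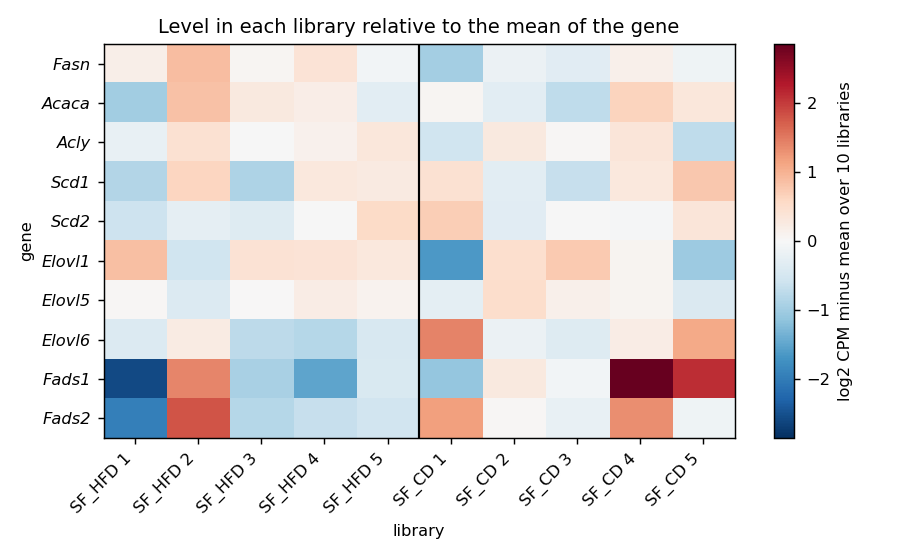
Log2 CPM of each enzyme in each library minus its mean over the 10 libraries, with SF_HFD left of SF_CD (red above the mean, blue below). Fads1 and Fads2 have the strongest colours, both are low in the SF_HFD library 1 and high in the SF_HFD library 2 and the SF_CD library 4.

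Levels of different genes were compared as CPM per kilobase of annotated exon sequence, over all 10 libraries. Scd2 was the most abundant at 66.3 ± 20.3 CPM per kilobase (SD, n = 10), above Elovl1 at 38.3 ± 16.8 in 9 of 10 libraries. Acly at 15.1 ± 3.72 and Elovl5 at 14.97 ± 2.99 CPM per kilobase could not be ordered, since Acly was the higher in 3 of 10 libraries. Scd1 followed at 12.8 ± 4.99, below Elovl5 in 7 of 10. Elovl6 was at 8.32 ± 5.17, Fads2 at 5.95 ± 4.82 and Fasn at 3.84 ± 1.29 CPM per kilobase, and Fads2 exceeded Fasn in 6 of 10. Fads1 at 2.07 ± 2.62 and Acaca at 0.685 ± 0.266 CPM per kilobase were the lowest, with Fads1 above Acaca in 6 of 10. The highest mean was 96.8 times the lowest, or 54.0 times with the longest coding transcript of each gene as its length. The union of exons of Acaca is 17074 bases, and its longest coding transcript 9513 bases, which would put it at 1.23 CPM per kilobase.

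The genes most like Fasn were those whose log2 CPM, centred on its own mean, differed least from that of Fasn over the 10 libraries, among the 3510 genes whose mean log2 CPM reached 5. They were Mtch1, a mitochondrial outer membrane protein (root mean square difference 0.13), Uba2, a subunit of the enzyme that activates SUMO (0.20), Eif4g2, a translation initiation factor (0.21), Ywhab, an adaptor of phosphorylated proteins (0.21), and Gm2296 (0.22). Mtch1 was at 45.02 ± 7.42 CPM in SF_HFD, against 31.7 ± 8.999 CPM in SF_CD. Acly ranked 122 of 3510 in likeness to Fasn (difference 0.39) and Elovl5 704. Elovl6 was the least alike of the enzymes ranked, at 2963 (difference 1.01). Acaca, Fads1 and Fads2 lay under the limit of 5 and were not ranked.

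Beyond the 10 enzymes, 97 genes in 10 lists of the surrounding pathways were examined, of which 81 were tested. None passed the adjusted threshold in edgeR, in either direction, while 11 of the 81 had an unadjusted p under 0.05, against 11.6% of all genes. DESeq2 called 1 of them, Lpin1. For 2 of the 81 the groups stood wholly apart, both higher in SF_HFD, against 3.65% of all genes. These were Slc25a1 and Prkab1, named after their values were seen. Slc25a1, the carrier that exports citrate from mitochondria to Acly, was at 59.8 ± 3.07 CPM in SF_HFD, against 42.7 ± 3.85 CPM in SF_CD (log2 fold change 0.49 ± 0.29, edgeR adjusted p = 0.536). Prkab1, a subunit of AMP-activated kinase, which inhibits acetyl-CoA carboxylase, was at 38.2 ± 14.4 CPM in SF_HFD, against 13.2 ± 10.1 CPM in SF_CD (log2 fold change 1.53 ± 0.56, edgeR adjusted p = 0.304). The gap between its groups was narrow, from 22.6 CPM in the SF_CD library 2 to 24.0 CPM in the shallow SF_HFD library 5. The shallow SF_CD library 5 was at 0 CPM.

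Of the 9 genes of acetyl-CoA and citrate supply, all tested, 5 had a positive and 4 a negative log2 fold change (median 0.09). The most abundant were Mpc1, of the mitochondrial pyruvate carrier (336.6 ± 69.2 CPM in SF_HFD, against 314 ± 167 CPM in SF_CD), and Pdha1, of pyruvate dehydrogenase (200.2 ± 45.7 CPM in SF_HFD, against 177 ± 97.1 CPM in SF_CD). Among 6 genes of NADPH supply the median was 0.22. Idh1, which makes NADPH in the cytosol, was at 302 ± 175 CPM in SF_HFD, against 218 ± 81.1 CPM in SF_CD, and Pgd, of the pentose phosphate pathway, at 128 ± 25.4 CPM in SF_HFD, against 104 ± 40.4 CPM in SF_CD. Of 7 tested genes that regulate malonyl-CoA and the carboxylase, 6 had a positive log2 fold change (median 0.61). Among them Mid1ip1, which promotes polymerisation of the carboxylase, was at 31.4 ± 15.9 CPM in SF_HFD, against 17.1 ± 8.48 CPM in SF_CD (edgeR adjusted p = 0.435), and Prkag1, of AMP-activated kinase, at 52.9 ± 14.0 CPM in SF_HFD, against 46.1 ± 17.9 CPM in SF_CD.

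Of 12 tested genes of transcription control, 9 had a positive log2 fold change (median 0.34). Srebf2, the sterol-responsive relative of Srebf1, was at 195 ± 70.9 CPM in SF_HFD, against 187 ± 79.0 CPM in SF_CD, and Mlx, a partner of the carbohydrate-responsive factor, at 67.2 ± 28.7 CPM in SF_HFD, against 50.1 ± 16.4 CPM in SF_CD. Srebf1 itself was at 19.6 ± 12.0 CPM in SF_HFD, against 12.7 ± 5.08 CPM in SF_CD (log2 fold change 0.62 ± 0.45, edgeR adjusted p = 0.636). Usf2, of the same list, was higher in SF_HFD, at 34.2 ± 22.1 CPM, against 15.9 ± 7.83 CPM in SF_CD. In edgeR its log2 fold change was 1.08 ± 0.47 (unadjusted p = 0.0372, adjusted p = 0.387), and the SF_HFD library 2 alone was at 73.1 CPM. The 7 tested genes of the remaining elongation cycle had a median of -0.16, with Tecr, its last reductase, at 391 ± 110 CPM in SF_HFD, against 434 ± 170 CPM in SF_CD. Hsd17b12, its other reductase, was at 216 ± 66.6 CPM in SF_HFD, against 224 ± 97.3 CPM in SF_CD. Hacd1, of the same list, was higher in SF_HFD, at 26.2 ± 6.95 CPM, against 11.7 ± 6.57 CPM in SF_CD. In edgeR its log2 fold change was 1.03 ± 0.41 (unadjusted p = 0.0230, adjusted p = 0.342).

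Of 8 tested genes of other desaturases and their electron donors, 6 had a negative log2 fold change (median -0.69). Cyb5a, the cytochrome that passes electrons to desaturases, was at 145 ± 18.4 CPM in SF_HFD, against 229 ± 140 CPM in SF_CD, where the SF_CD library 4 was at 460.3 CPM (edgeR adjusted p = 0.519). Its relative Cyb5b was at 145 ± 39.8 CPM in SF_HFD, against 121 ± 31.9 CPM in SF_CD. The 6 tested genes of mitochondrial fatty acid synthesis had a median of 0.08. The acyl carrier Ndufab1 was at 183 ± 37.7 CPM in SF_HFD, against 165 ± 79.2 CPM in SF_CD. Cbr4, a reductase, was at 31.7 ± 7.76 CPM in SF_HFD, against 29.0 ± 20.5 CPM in SF_CD. In the SF_CD libraries 1 and 5 Ndufab1 was at 40.6 and 136 CPM and Cbr4 at 2.25 and 13.6 CPM. The other SF_CD libraries held 194 to 242 CPM of Ndufab1, against 128 to 234 CPM in SF_HFD. They held 36.9 to 52.2 CPM of Cbr4, against 25.3 to 44.2 CPM in SF_HFD.

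Acyl-CoA synthetases and acyl-CoA binding genes held 5 of the 11 genes with an unadjusted p under 0.05, against 11.6% of all genes (8 tested, median -0.52). Acbd3, Acsl3 and Acsl4 were lower in SF_HFD, with log2 fold changes of -1.51, -0.88 and -1.27, and Acsl5 and Slc27a4 were higher. The highest Acbd3 and Acsl4 values were those of the SF_CD libraries 1 and 5. Acsl5, a synthetase abundant in intestinal epithelium, was at 90.5 ± 35.6 CPM in SF_HFD, against 45.5 ± 19.1 CPM in SF_CD (log2 fold change 0.94 ± 0.39, edgeR adjusted p = 0.357). The SF_CD libraries 1 and 5 held its lowest values, 22.5 and 27.3 CPM. The other SF_CD libraries were at 54.8 to 63.9 CPM, against 61.2 to 133 CPM in SF_HFD. Dbi, the acyl-CoA binding protein, was at 562 ± 67.6 CPM in SF_HFD, against 784 ± 345 CPM in SF_CD. The 5 tested genes of fatty acid uptake had a median of -0.30. Fabp5, a fatty acid carrier, was at 37.3 ± 13.4 CPM in SF_HFD, against 77.4 ± 76.4 CPM in SF_CD, and the SF_CD library 4 alone was at 211 CPM. Cd36, the fatty acid translocase, was too rare to be tested, with 0 counts in SF_HFD and 53 in SF_CD. A single SF_CD library held 27 of these 53.

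The 13 tested genes of glyceride synthesis and lipid droplets had a median of 0.14. Agpat2, of this list, was higher in SF_HFD, at 83.4 ± 33.3 CPM, against 38.1 ± 21.1 CPM in SF_CD. In edgeR its log2 fold change was 1.10 ± 0.44 (unadjusted p = 0.0244, adjusted p = 0.347). Agpat2 was at 7.79 CPM in the shallow SF_CD library 5, against 28.8 to 62.9 CPM in the other SF_CD libraries. In SF_HFD it was at 51.9 to 138 CPM. Plin3, a droplet coat protein, was at 75.4 ± 9.61 CPM in SF_HFD, against 209 ± 190 CPM in SF_CD (log2 fold change -1.45 ± 0.53, edgeR adjusted p = 0.309). It was at 415 and 421 CPM in the SF_CD libraries 1 and 5 and in the other 8 at 61.7 to 88.3 CPM, so the difference rests on the libraries with the most ribosomal RNA. Plin2, another droplet coat protein, was at 83.9 ± 44.7 CPM in SF_HFD, against 84.6 ± 18.2 CPM in SF_CD. Lpin1, a phosphatidate phosphatase, had the smallest unadjusted p of the 81 genes (6.95 ± 3.22 CPM in SF_HFD, against 27.0 ± 25.5 CPM in SF_CD, log2 fold change -1.91 ± 0.60, edgeR adjusted p = 0.219). Its highest values, 67.6 and 37.0 CPM, were again those of the SF_CD libraries 1 and 5, with 4.99 to 12.6 CPM in SF_HFD and 8.83 to 12.6 CPM in the other 3 SF_CD libraries.

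**Figure D5:**
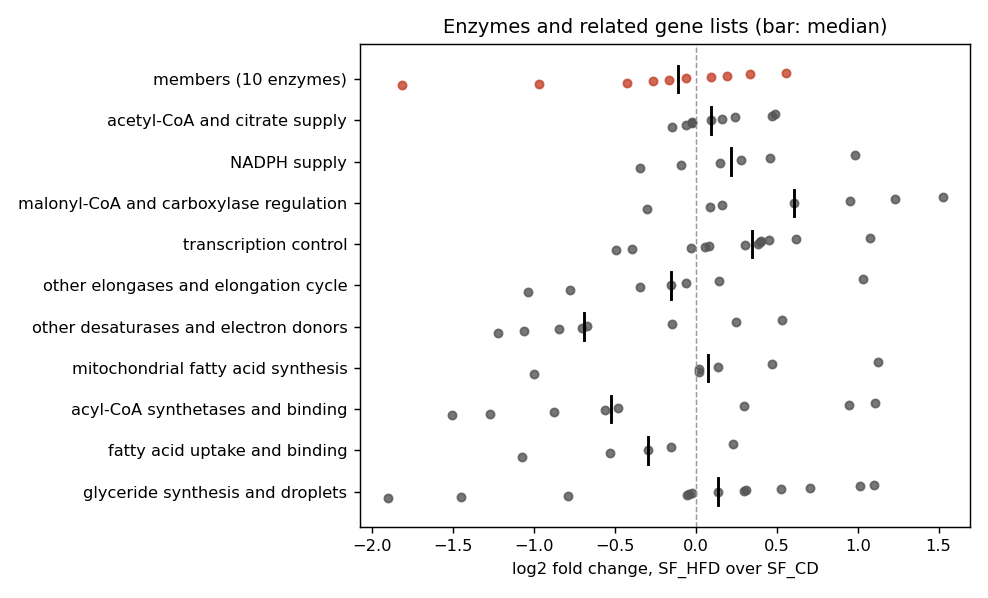
Log2 fold change (SF_HFD over SF_CD) of each tested gene in the 10 enzymes (red) and in 10 lists of related genes (grey), with list medians as bars. No gene shown passed the adjusted threshold, and list medians run from -0.69 for other desaturases and electron donors to 0.61 for malonyl-CoA and carboxylase regulation.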

How the data were processed

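The authors deposited 1 table of estimated counts per gene as whole numbers, so no rounding was needed. Salmon 1.3.0 and mm10 are named in the submitters' processing notes, while the annotation release and the step from transcripts to genes are not stated. Columns were matched to samples by the library name in the labels. Of the row identifiers, 94.7% occur in GENCODE M21, from which positions and lengths were taken.

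The 10 serine-free libraries were fitted with edgeR 4.0.16 (quasi-likelihood, robust, TMM, filterByExpr, R 4.3.3), with Benjamini-Hochberg adjustment over all 11780 genes. A standard error is the log2 fold change over the square root of F. Ratios were tested by exact permutation, and correlations with 100000 permutations. Alternatives were RLE and upper quartile scaling, other filters, DESeq2 1.42.0, limma-voom, run with weights for library quality (limma 3.58.1), a replicate block, leaving out each library, and leaving out those under 1000000 counts. The fit was tested on simulated counts (11466 genes), where 3 unchanged genes were called.

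The members and lists were chosen with earlier results of these data known. The rule for named genes took all members, called list genes, the 2 most abundant genes of each list and the 5 genes most like Fasn. Slc25a1, Prkab1, Srebf1, Usf2, Hacd1, Acbd3, Acsl3, Acsl4, Slc27a4, Agpat2, Lpin1 and Cd36 fall outside it and were named after their values were seen. A gene that the rule takes from the uptake list is not reported here. Nothing in the labels ties libraries to different animals or cultures. The p-values thus describe only how these libraries spread, in part perhaps for technical reasons. Counting intervals cover counting error only, and 3 counts correspond to 0.226 CPM in the SF_HFD library 4 and 6.76 CPM in the SF_CD library 1. No 2 columns were identical.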

Additional observations from a re-analysis of the deposited data

Results flagged for a closer look

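In 8 of 86 groups of 5 values examined, the highest or lowest library lay far from the rest of its group (Dixon's test at 95%, which flags about 1 in 20 groups by chance). Among the 10 enzymes these were Fads1 in the SF_HFD library 2, at 14.3 CPM against 0.634 to 3.79 CPM in the other 4, and Fads2 in the same library, at 52.1 CPM against 3.62 to 10.1 CPM. That library also stood low for Hsd17b12, at 99.1 CPM against 223 to 256 CPM, and for Pdha1, at 123 CPM against 202 to 235 CPM. The log2 ratio of Acly over Fasn was 0.33 in the SF_CD library 5 and 1.15 to 1.38 in the other SF_CD libraries. For Fabp5 the SF_CD library 4 gave 211 CPM and the other SF_CD libraries 29.3 to 72.0 CPM. The epithelial marker sum was 10836 CPM in the SF_HFD library 1 and 4525 to 5730 CPM in the others. Red cell markers summed to 2.12 CPM in the SF_CD library 4 and to at most 0.110 CPM in the others.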

How the results depend on the processing

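None of the 10 enzymes was called in any alternative fit, and their adjusted p ranged from 0.109 (Fads1, limma-voom with quality weights) upward. The log2 fold changes kept their sign in 171 values and changed it in 9. Without the libraries under 1000000 counts, Acly was at -0.13, Scd1 at 0.11 and Elovl1 at -0.10, and Acly was at -0.061 with limma-voom and quality weights. Leaving out 1 library gave -0.16 to 0.34 for Acaca, -0.16 to 0.085 for Elovl5 and -0.37 to 0.0081 for Scd1. The count over all genes, 38, was 78 with no filter, 298 with DESeq2, 168 with limma-voom and sample quality weights together and 16 to 88 with 1 library left out. Leaving out libraries 2, 4 or 5 of SF_HFD gave 19, 16 or 23 genes. Leaving out library 2 of SF_CD gave 88 and library 4 gave 24. The cause was not tested. Of the related genes, 1 was called with no filter (Cd36, adjusted p 0.0320) and 1 with DESeq2 (Lpin1, adjusted p 0.0359). Cd36 had 53 counts in SF_CD, 27 of them in 1 library, and 0 in SF_HFD. The difference in Scd1 over Scd2, 0.05, was -0.28 by medians and -0.16 to 0.19 with 1 library left out. The smallest adjusted p of a ratio was 0.0714, in the 7 libraries over 1000000 counts, where the exact test allows no p under 0.0286.

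The same replicate numbers occur in both groups, but same-numbered libraries did not deviate together (correlations of -0.21 to 0.14), and 1 of 5 correlated best with its own number. With the replicate block 22 genes were called. With the block no enzyme or related gene was. For the ratios 5 pairs allow no p under 0.0625, so the block could not pass any of them. Using the longest coding transcript as length moved Acaca to 1.23, Elovl1 to 57.7 and Elovl5 to 19.0 CPM per kilobase.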
